A study of Oryza sativa with 6 samples.

Results

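Lipoxygenases, phospholipases D and oxophytodienoate reductases are enzymes that break down membrane lipids and turn the released fatty acids into oxylipins. Members were chosen by name: every probe set that the platform annotation gives to exactly 1 gene, where a symbol or synonym of that gene starts with LOX, PLD or OPR and a digit, with or without Os. The rule found 15 of the 17905 genes on the array, measured by 18 probe sets: 2 phospholipases D (2 probe sets), 6 lipoxygenases (8) and 7 oxophytodienoate reductases (8). A further 3 genes of these families, LOX4, OsOPR3 and a neighbour of OPDAR1 that carries the same names, had no probe set of their own and are not analysed here.

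The samples were embryonic axes of mature rice seeds of the cultivar Nipponbare, aged in humid warmth, whose RNA was amplified and hybridised to Affymetrix Rice Genome Arrays, with 3 arrays at 45 °C and 3 at 40 °C. Both groups were first held at 25 °C and 85% relative humidity for 3 days, aged at 85% humidity for 14 days (15 days in another label field) and last held at 25 °C and 32% humidity for 3 days. The labels name the warmer treatment as the one that costs the seeds germination and the milder one as a loss of vigour, so the comparison is between harsher and milder ageing. No unaged group was analysed here. Values are GCRMA log2 expression values. Whether the 3 replicates at a temperature were grown or aged apart is not stated in the labels, and the p-values therefore reflect only how far these replicates spread, which may be technical.

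Phospholipase D cleaves membrane phospholipids and leaves phosphatidic acid. Lipoxygenases add oxygen to polyunsaturated fatty acids, and the resulting hydroperoxides are converted by allene oxide synthase and allene oxide cyclase to oxophytodienoic acid, which oxophytodienoate reductase reduces on the way to the hormone jasmonic acid. Oxidation of lipids is a known part of seed ageing, and lipoxygenases of the rice grain are known for the stale flavour of stored grain.

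Names needed care in the reductase family, because synonyms such as OPR5, OPR6 and OPR7 are shared between loci. OsOPR7 is also listed as OPR3, a name it shares with OsOPR3. The synonym OPR4 belongs to 2 loci. LOC4340484 is listed as OPR4, OPR6 and OsOPR6, and LOC4340486 as OPR4, OPR10 and OsOPR4. They are called OsOPR6 and OsOPR4 here. OsOPR6, OsOPR5 (LOC4340485), OsOPR4 and OPDAR1 (LOC4340490, also listed as OsOPR1 and OsOPR2) lie in 1 stretch of a chromosome in the RefSeq annotation (assembly ASM3414082v1), where 4 of 5 protein-coding genes are members and the remaining one is OsOPR3. CM-LOX1 (LOC4345993) and CM-LOX2 (LOC4345994) are likewise direct neighbours. Copies in such stretches are similar in sequence, so how far a probe set reads its neighbour's transcript is uncertain.

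OsOPR6 had the smallest p of the tested members, with less signal at 45 °C, and no member passed the adjusted test. Of the members, 9 of the 18 probe sets, 1 for each of 9 genes, reached the mean log2 value of 4 over the 6 arrays that was set as the minimum for testing. They were both phospholipases D, 1 lipoxygenase (LOX5) and 6 reductases. None passed limma at a Benjamini-Hochberg adjusted p of 0.05, as none of all 22214 tested probe sets did (0% called, smallest adjusted p 0.108). At an unadjusted p under 0.05 there were 3 of 9, OsOPR6, PLD1 and OsOPR4, all lower at 45 °C, against 19.2% of all tested probe sets (13.8% lower and 5.37% higher). Median centring left 1 of 9 (OsOPR6) under that unadjusted p, against 4332 of all 22214 tested probe sets. Quantile normalization and cyclic loess left 2 of 9 each (OsOPR6 and OsOPR4), against 3582 and 3359 of the 22214. Over the alternative settings, PLD1 was under it in 7 of 15 and OsOPR4 in 8 of 14. In 4 of 9, OsOPR6, OsOPR8, OsOPR4 and PLD1, all arrays at 45 °C lay below all arrays at 40 °C, which held for 17.8% of all tested probe sets.

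On the deposited scale all 9 tested members had a log2 change below 0, as did 64.4% of tested probe sets. The median change of all tested probe sets was -0.17 on that scale, but 3 further scalings gave 0.09 (median centring), 0.02 (quantiles) and -0.02 (cyclic loess). Among members, OsOPR7 and OsOPR12 turned positive under each of these 3 scalings, which left 7 of 9 below 0. The median change of the 9 tested members was -0.58 on the deposited scale. OsOPR8 and PLD2 reached the minimum only through their level at 40 °C, so such counts and medians describe the probe sets that passed it and support no statement about the families.

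**Figure D1:**
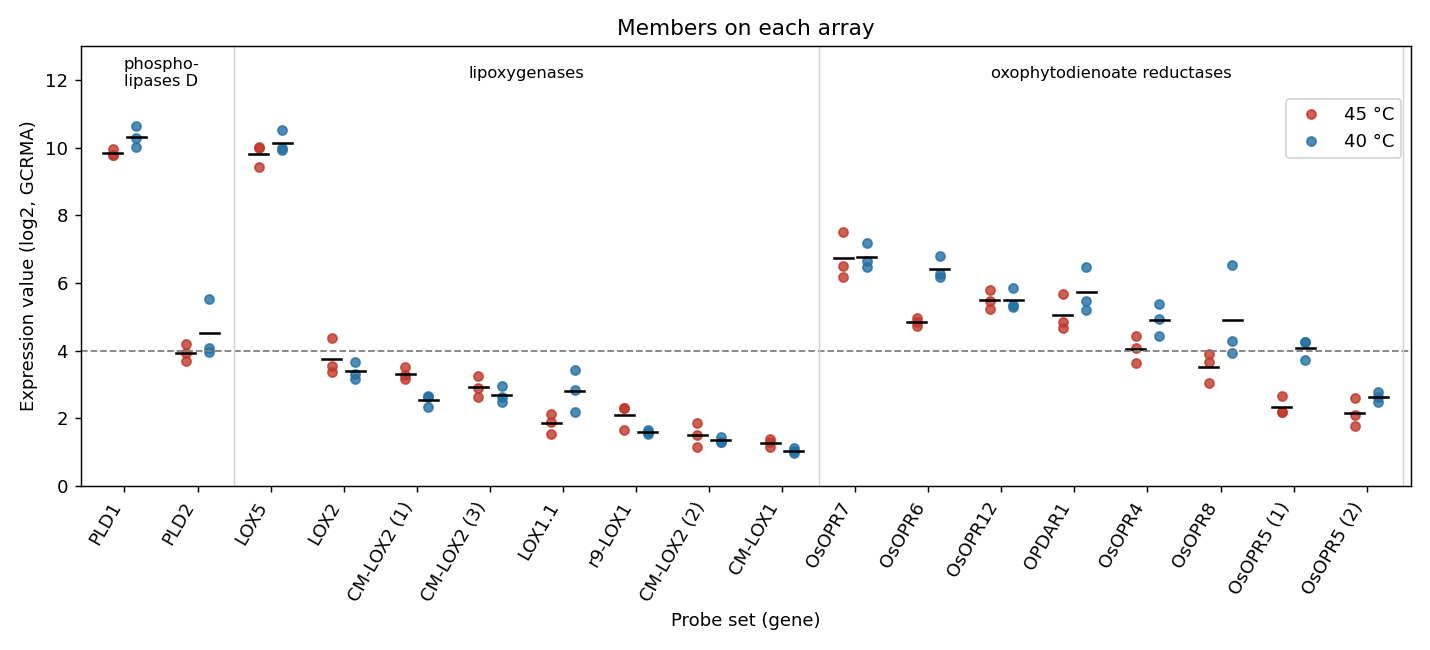
Log2 expression value of each of the 18 probe sets (horizontal axis, by family) on each array, 45 °C in red on the left and 40 °C in blue on the right of each pair; points are arrays, black bars are group means, and the dashed line is the minimum of 4. The 3 arrays at 45 °C lie close together and below those at 40 °C for OsOPR6, and 7 of 8 lipoxygenase probe sets have a mean under the minimum.

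PLD1 (LOC4327647) was the phospholipase D with the smaller p. Its log2 values were 9.79, 9.94 and 9.78 at 45 °C, against 10.03, 10.64 and 10.27 at 40 °C. The groups did not overlap, and the arrays at 45 °C differed by less among themselves than those at 40 °C. The means were 9.84 ± 0.09 at 45 °C and 10.31 ± 0.31 at 40 °C (SD, n = 3 each), a log2 change of -0.47 ± 0.17 (SE), with a 95% interval of -0.88 to -0.07 (limma adjusted p = 0.221). That is a 1.39-fold lower level at 45 °C. The median change of tested probe sets of like level (means of 10 to 11) was -0.17, and after the 3 further scalings the change of PLD1 was -0.31 to -0.22.

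PLD2 (LOC4341469) was dim. It had log2 values of 3.92, 3.70 and 4.20 at 45 °C and of 3.96, 5.52 and 4.09 at 40 °C. A single array at 40 °C, replicate 2, stood above the others, which overlapped. The log2 change was -0.58 ± 0.42 (SE; limma adjusted p = 0.454), and -0.08 without that array.

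LOX5 (LOC4333823) was the 1 lipoxygenase gene that reached the minimum. Values were 9.42, 10.02 and 9.995 at 45 °C, against 9.98, 10.51 and 9.93 at 40 °C, so the groups overlapped. Its log2 change was -0.33 ± 0.23 (SE), with a 95% interval of -0.85 to 0.20 (limma adjusted p = 0.432), and -0.16 to -0.07 after further scaling. Without replicate 2 at 40 °C the change was -0.14, and without replicate 1 at 45 °C it was -0.13.

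The other 7 lipoxygenase probe sets, for 5 genes, had means under the minimum and were not tested. No detection calls were used, so whether these transcripts were present was not tested. LOX1.1 (LOC4334049) had 1.53, 2.14 and 1.91 at 45 °C and 2.18, 3.42 and 2.84 at 40 °C, a difference of -0.95 between means with no overlap. Among probe sets under the minimum, 3.3% had all 45 °C arrays below all 40 °C arrays.

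Differences in the other direction were seen in 3 lipoxygenase probe sets under the minimum, each with all arrays at 45 °C above all at 40 °C, as in 21.3% of probe sets there. The first probe set of CM-LOX2 had 3.27, 3.51 and 3.17 at 45 °C and 2.66, 2.63 and 2.33 at 40 °C, a difference of 0.77, while its other 2 probe sets overlapped between groups, with differences of 0.15 and 0.24. CM-LOX1 had means of 1.29 at 45 °C and 1.05 at 40 °C, a difference of 0.24. For r9-LOX1 (LOC4333818), named for a lipoxygenase that acts on carbon 9 of the fatty acid, the difference was 0.49, with the lowest value at 45 °C (1.662) barely above the highest at 40 °C (1.661). The sizes of these differences moved with the scaling: over the 3 further scalings they were 0.56 to 1.03 for the first CM-LOX2 probe set, 0.11 to 0.49 for CM-LOX1 and 0.33 to 0.74 for r9-LOX1. LOX2 (LOC4331824) had values of 3.37 to 4.37 at 45 °C and 3.17 to 3.68 at 40 °C, which overlapped.

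Among the 6 tested reductases, OsOPR6 had the smallest p. Its log2 values were 4.85, 4.95 and 4.74 at 45 °C, against 6.79, 6.28 and 6.19 at 40 °C. The groups lay more than 1 unit apart, and each was tighter than this gap. Means were 4.85 ± 0.11 at 45 °C and 6.42 ± 0.33 at 40 °C (SD, n = 3 each), a log2 change of -1.57 ± 0.27 (SE), or 2.97-fold lower at 45 °C, with a 95% interval of -2.19 to -0.95. With limma the unadjusted p was 0.000446, number 62 of 22214 in order of p, and the adjusted p was 0.156. A change this far down or further was seen in 0.95% of tested probe sets, and the median change of those at like level (means of 5 to 6) was -0.19.

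The difference kept its direction under each alternative that could alter it. Leaving out 1 array in turn gave changes of -1.69 to -1.38, and further scaling gave -1.43 to -1.32. The unadjusted limma p stayed under 0.05 in 14 of 14 alternative settings that held the probe set. The adjusted p ranged from 0.0468 to 0.359 over them and was under 0.05 in 1, array weights.

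OsOPR5, from the same stretch as OsOPR6, had lower means at 45 °C as well, in 2 probe sets whose means over the 6 arrays were under the minimum. In its first probe set the values were 2.19, 2.65 and 2.19 at 45 °C and 4.26, 3.74 and 4.26 at 40 °C. The groups did not overlap, and their means, 2.35 at 45 °C and 4.08 at 40 °C, differed by -1.74. Without an expression minimum limma gave an unadjusted p of 0.000115 and an adjusted p of 0.15, where 17.4% of all probe sets had an unadjusted p under 0.05. Replicates 1 and 3 of each group held equal deposited values in this probe set, as 0.431% of non-control probe sets did at 45 °C and 0.664% at 40 °C, so the number of separate values is smaller than the number of arrays. Its second probe set had 1.77, 2.09 and 2.59 at 45 °C and 2.63, 2.47 and 2.78 at 40 °C, which overlapped, with a difference of -0.48.

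OsOPR4, also of this stretch, had 4.43, 3.64 and 4.08 at 45 °C, against 4.44, 4.92 and 5.39 at 40 °C. The highest array at 45 °C (4.428) lay just under the lowest at 40 °C (4.437), so the groups barely separated. The log2 change was -0.87 ± 0.33 (SE), with a 95% interval of -1.63 to -0.11 (limma adjusted p = 0.226), and -0.97 to -0.61 after further scaling.

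OPDAR1 had 4.67, 5.69 and 4.84 at 45 °C and 5.20, 6.48 and 5.48 at 40 °C. The groups overlapped, with replicate 2 at 45 °C above replicates 1 and 3 at 40 °C. Its log2 change was -0.65 ± 0.43 (SE; limma adjusted p = 0.412), and -0.27 without replicate 2 at 40 °C.

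The other 3 reductases lie outside this stretch. OsOPR7 (LOC4345762), known as the rice reductase that acts on the natural isomer of oxophytodienoic acid in jasmonate synthesis, had 6.18, 6.50 and 7.51 at 45 °C and 6.64, 7.18 and 6.48 at 40 °C. The ranges overlapped widely, and the log2 change was -0.04 ± 0.39 (SE), with a 95% interval of -0.94 to 0.86 (limma adjusted p = 0.965). This interval holds changes of the size seen in OPDAR1 and OsOPR4, so the test does not show that OsOPR7 was alike at both temperatures.

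OsOPR12 (LOC107279821) had 5.23, 5.47 and 5.78 at 45 °C and 5.29, 5.85 and 5.35 at 40 °C, again overlapping. Its log2 change was -0.004 ± 0.28 (SE), with a 95% interval of -0.67 to 0.66 (limma adjusted p = 0.995). OsOPR8 (LOC4329684) had 3.04, 3.89 and 3.66 at 45 °C and 4.30, 6.52 and 3.94 at 40 °C. Its groups did not overlap, but most of the difference came from replicate 2 at 40 °C. The log2 change of OsOPR8 was -1.39 ± 0.64 (SE; limma adjusted p = 0.281), and -0.59 without that array.

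**Figure D2:**
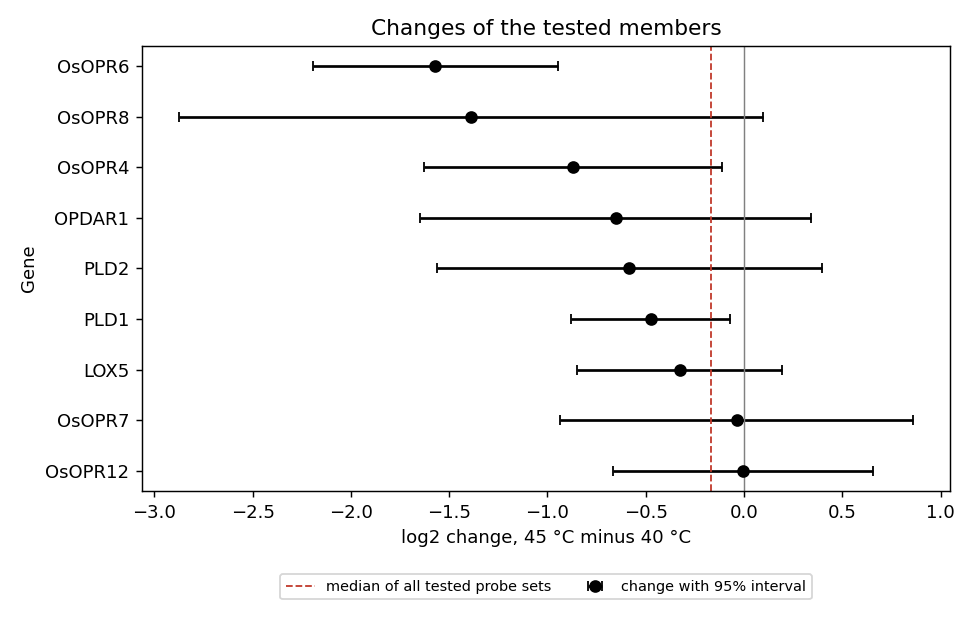
Log2 change, 45 °C minus 40 °C (horizontal axis), of the 9 tested members; points are limma estimates over 3 arrays per group, bars their 95% intervals, the dashed line the median of all tested probe sets (-0.17). The intervals of OsOPR6, OsOPR4 and PLD1 lie below 0, and those of the other 6 include it.

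Several members were highest on replicate 2 at 40 °C, which also had the lowest mean correlation with its own group (0.931). A measure of RNA quality was the signal at the 3-prime end over that at the 5-prime end, averaged over 5 groups of control probe sets. Another 2 groups held a probe set under the minimum and were left out. The measure was 1.66, 1.66 and 2.03 log2 units at 45 °C and 1.74, 2.99 and 1.92 at 40 °C. Between groups it averaged 1.78 ± 0.22 at 45 °C and 2.21 ± 0.68 at 40 °C (SD, n = 3 each; exact two-sided permutation p = 0.5, where 0.1 is the smallest possible). Of the 9 tested members, 6 (PLD1, PLD2, LOX5, OsOPR8, OsOPR12 and OPDAR1) had their highest value on that array, as did 34.1% of all tested probe sets. Without it 1 of 9, OsOPR6, had an unadjusted limma p under 0.05 (change -1.64, adjusted p = 0.088), against 3927 of all 22214 tested probe sets. PLD1 had a change of -0.31 and OsOPR4 of -0.86 without that array. The mass of RNA obtained averaged 48.7 ± 7.02 µg at 45 °C and 58.7 ± 8.14 µg at 40 °C (SD, n = 3 each; exact two-sided permutation p = 0.3). The part of RNA quality and yield in these differences was not tested otherwise.

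Markers of other seed tissues were read beside the members. Transcripts of the mature embryo were abundant: the summed linear signal of 9 probe sets for 8 genes, among them EM and RAB21, was 70600 to 73400 at 45 °C and 72200 to 79300 at 40 °C. Endosperm markers, 27 probe sets for 16 genes that include some other genes of similar names (GT2, GT3, GT4, GT7 and MADS3), summed to 6460 to 12600 at 45 °C and 6920 to 10200 at 40 °C. Green tissue markers, 11 probe sets for 6 genes, summed to 161 to 235 at 45 °C and 189 up to 200 at 40 °C, and the 7 probe sets for 6 aleurone genes to 989 to 1510 at 45 °C and 1040 to 1340 at 40 °C. On the deposited scale 13 of 16 tested endosperm probe sets, for 10 genes, had a change above 0 (median 0.24). Of the embryo probe sets 8 of 9 had one below 0 (median -0.08). Among all tested probe sets 64.4% had a change below 0, with a median of -0.17. Whether tissue makeup had a part in the members' differences was not tested, and in such bulk samples fewer cells of a type and less RNA per cell cannot be told apart.

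Of the list of other jasmonate synthesis genes, 3 of 7 reached the minimum. All 3 had changes below 0, as did 64.4% of all tested probe sets, and none had an unadjusted p under 0.05. Allene oxide cyclase, listed as aoc and encoded by 1 gene here, had means of 7.91 ± 0.09 at 45 °C and 7.92 ± 0.15 at 40 °C (SD, n = 3 each), a log2 change of -0.001. JAR1, which joins jasmonic acid to isoleucine, had a change of -0.43 (limma adjusted p = 0.485). DAD1 had a change of -0.33 (limma adjusted p = 0.469), but this name is shared by a lipase of jasmonate synthesis in Arabidopsis and by the defender against cell death, and the list does not tell them apart. The 4 allene oxide synthase genes AOS1 to AOS4 had means under the minimum. Their differences, 45 °C minus 40 °C, were -0.11, 0.47, 0.25 and 0.47 in that order. For AOS3 and AOS4 all arrays at 45 °C lay above all at 40 °C, as in 21.3% of probe sets under the minimum.

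The list named for jasmonate perception and response was filled by name pattern. It includes OsTIFY1a, OsTIFY2a and OsTIFY2b, also listed as GATA18, GATA17 and GATA20, with changes of -0.03, -0.12 and -0.20 in that order. Of the genes on this list, 14 of 22 reached the minimum with 16 probe sets, of which 13 had a change below 0 and 3 above. None passed the adjusted threshold, and 3 (18.8%) had an unadjusted p under 0.05, near the 19.2% of all tested probe sets. Both lower ones were receptor genes, which makes 2 of 16 lower at that p, against 13.8% of all tested probe sets. COI2, of the same name pattern, overlapped between groups, with a change of -0.36 (limma adjusted p = 0.452). COI1B had 6.72 ± 0.19 at 45 °C and 7.47 ± 0.22 at 40 °C (SD, n = 3 each), a change of -0.76 ± 0.23 (SE; limma adjusted p = 0.19). COI1, also listed as COI1A, had 7.71 ± 0.11 at 45 °C and 8.21 ± 0.04 at 40 °C, a change of -0.50 ± 0.17 (SE, limma adjusted p = 0.207). For COI1B and COI1 all arrays at 45 °C lay below all at 40 °C, as in 17.8% of all tested probe sets. The higher one was a probe set of the repressor gene JAZ4 (1.21 ± 0.41 SE, limma adjusted p = 0.209), whose other probe set had a change of -0.23. NINJA1, the adaptor of these repressors, was next among the higher ones at 0.54 (limma adjusted p = 0.447), with -0.10 in its other probe set.

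OsSSI2, a desaturase that makes the first double bond of stearic acid, was the 1 desaturase listed. It had 10.63 ± 0.03 at 45 °C and 10.99 ± 0.13 at 40 °C (SD, n = 3 each), a change of -0.36 ± 0.11 (SE; limma adjusted p = 0.193), with no overlap. The list named for defence against lipid peroxides held vitamin E synthesis genes and ALDH5F1, with 9 tested probe sets for 4 of 6 genes. ALDH5F1, also listed as SSADH1, is a succinic semialdehyde dehydrogenase and not known for that role, and its change was -0.12 (limma adjusted p = 0.551). The homogentisate phytyltransferase gene OsVTE2-1, at the entry of tocopherol synthesis, had changes of -0.60 and -0.42 in 2 probe sets (limma adjusted p = 0.182 and 0.212), but of 0.41 in each of 2 others, which were lowest on replicate 2 at 40 °C, and of -0.40 and -0.02 in the remaining ones. VTE1, the tocopherol cyclase, had a change of -0.28 (limma adjusted p = 0.534). The pattern fixed for phospholipase C, diacylglycerol kinase and related genes matched no gene.

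**Figure D3:**
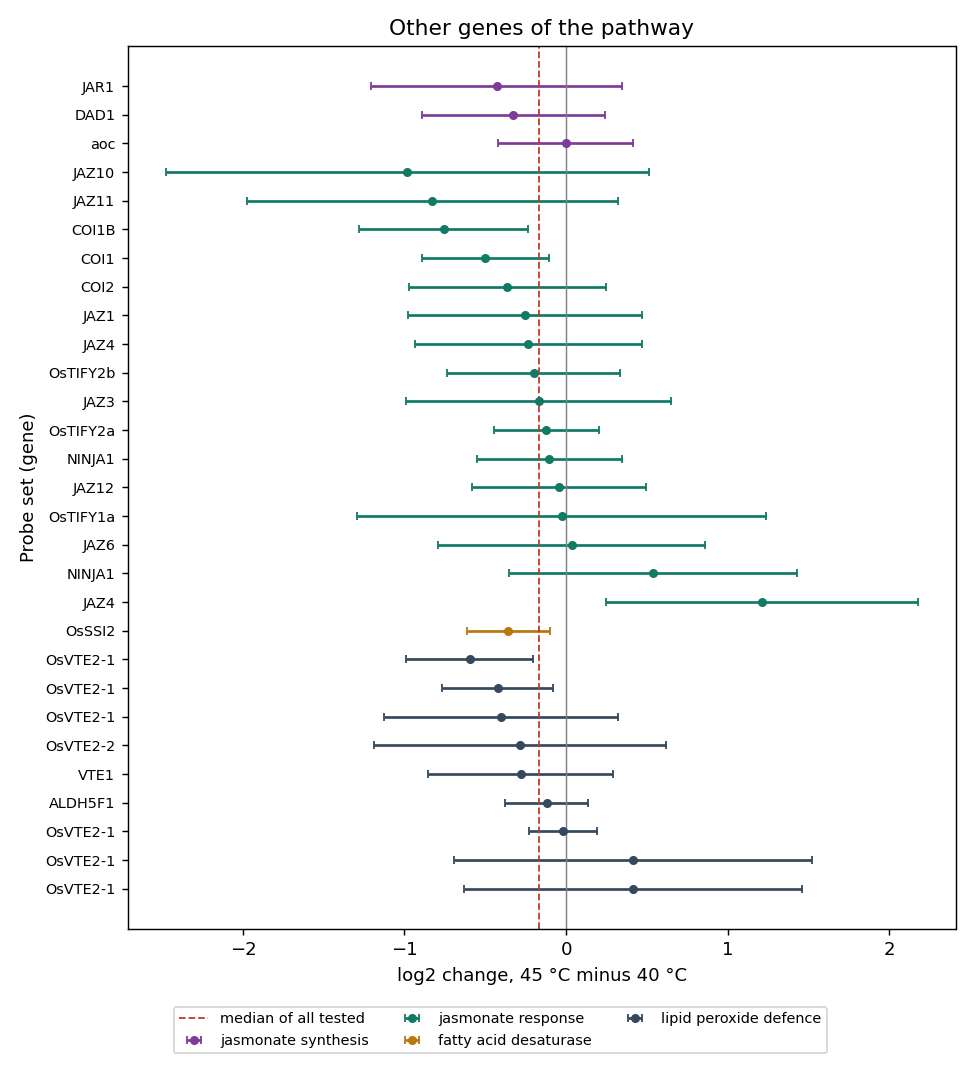
Log2 change, 45 °C minus 40 °C (horizontal axis), of the tested probe sets of jasmonate synthesis, jasmonate response, fatty acid desaturation and lipid peroxide defence; points are limma estimates over 3 arrays per group and bars 95% intervals, coloured by list, with a dashed line at the median of all tested probe sets. COI1, COI1B, OsSSI2 and 2 probe sets of OsVTE2-1 lie below 0 with their intervals. For JAZ4 1 of 2 probe sets lies above 0, and aoc lies at 0.

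The profiles of PLD1, OsOPR6 and OsOPR4 over the 6 arrays were set against 2037 tested probe sets of genes with a name, by Pearson correlation of log2 values. Nearest to PLD1 were MRS2-I, a magnesium transporter gene (r = 0.993, change -0.38), OsSAPK10, a kinase gene of abscisic acid signalling (r = 0.99, change -0.41), and the protein phosphatase gene BIPP2C2 (r = 0.987, change -0.50). Nearest to OsOPR6 were a gene listed as chaperonin (r = 0.983, change -0.82), pinA (r = 0.98, change -0.50) and the heat shock factor gene HS1, also listed as HSFA2B (r = 0.98, change -0.84). For OsOPR4 they were LTD (r = 0.993, change -0.55), RAB16C (r = 0.983, change -0.13) and the kinase gene CIPK23 (r = 0.98, change -1.02). These values describe 6 arrays that share their normalization, and each gene was picked as the highest of many.

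**Figure D4:**
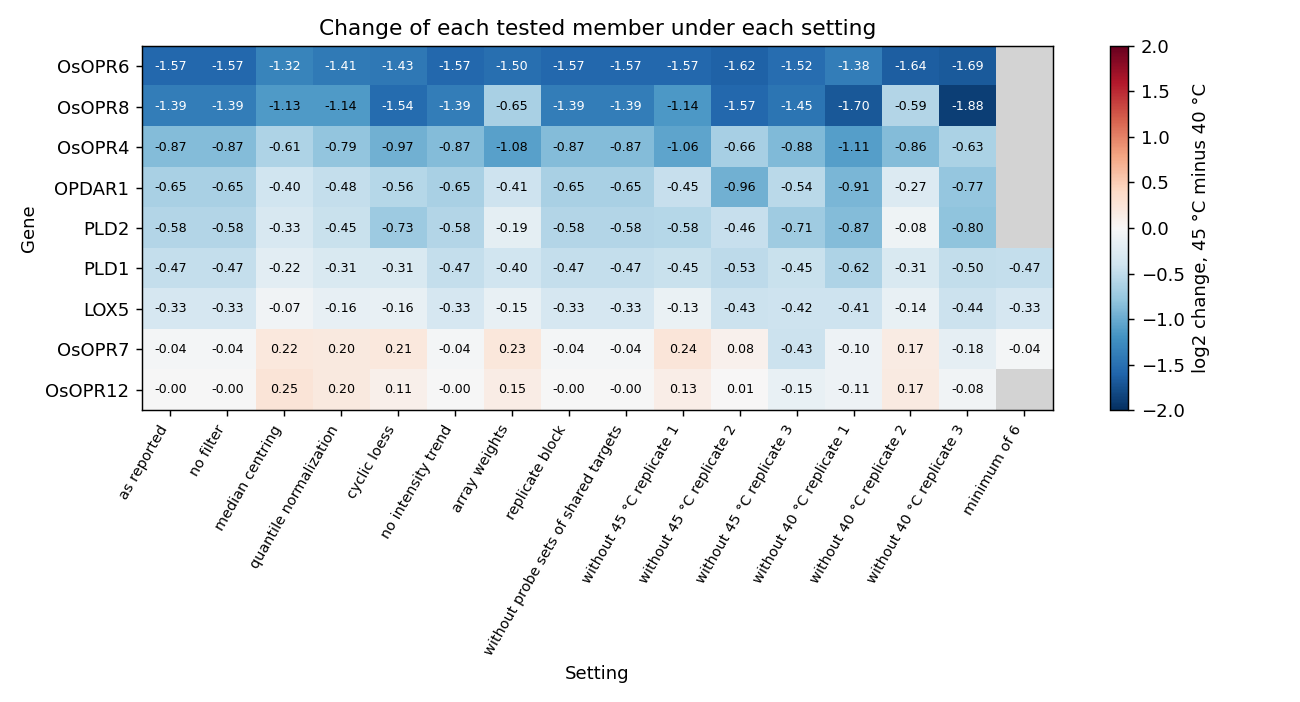
Log2 change, 45 °C minus 40 °C, of each tested member (rows) under each setting (columns), as number and colour; grey marks settings that left the probe set out. The row of OsOPR6 stays between -1.69 and -1.32, while OsOPR7 and OsOPR12 stand on both sides of 0.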

How the data were processed

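Per the submitters' processing notes, the authors made the deposited log2 expression values with GCRMA, a background correction and summary of probe sets. Its version and the annotation build are not given in the sources used here. The log2 scale was checked on the values (0.563 to 14.6). All value columns belonged to the 6 samples. Gene names came from the platform annotation and the RefSeq name table of assembly ASM3414082v1, in which 17905 of 17905 genes were found.

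The 57258 non-control probe sets were reduced to the 22214 with a mean of at least 4, and 45 °C was compared with 40 °C with limma 3.58.1 in R 4.3.3 (lmFit, eBayes with an intensity trend, two-sided), adjusted over all tested probe sets. The test was checked on simulated data with independent noise on each array, so no array was an outlier there. At the adjusted threshold it recovered 10.2% of changes of 1 log2 unit and 56.4% of changes of 2. A member that did not pass may therefore still differ between groups. The number of arrays limits the precision.

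Members and gene lists were chosen with earlier results of these data known. Every member is named, with values per array for PLD1, both loci named OPR4, members with an unadjusted p under 0.05 or groups that did not overlap, and the highest mean of each family; of pathway lists up to 2 genes of smallest p per direction are named, and the 3 named genes of nearest profile. Alternatives covered the minimum, scaling, variance model, array weights, shared targets, a replicate block and each array left out.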

Additional observations from a re-analysis of the deposited data

How the results depend on the processing

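No member passed the adjusted threshold with no minimum or one of 6, under any of the 3 scalings (medians, quantiles, cyclic loess), with a constant prior variance, without probe sets of shared targets, with a replicate block, or with 1 array left out (0 to 0 members, 0 to 69 of all probe sets, the 69 without replicate 2 at 40 °C). With array weights, which gave that array a weight of 0.336 and replicate 3 at 40 °C 3.74, 1 member (OsOPR6) and 193 probe sets passed. The median change of tested members was -0.56 to -0.33 after scaling, -0.58 with the replicate block and -0.87 to -0.27 with 1 array left out. All tested probe sets had medians of 0.09, 0.02 and -0.02 under the 3 scalings in the order given.

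The change of OsOPR7 was 0.22 after median centring, 0.20 after quantile normalization, 0.21 after cyclic loess, 0.23 with array weights, and -0.43 to 0.24 with 1 array left out. That of OsOPR12 was 0.25, 0.20, 0.11 and 0.15 in the same settings, and -0.15 to 0.17 with 1 array left out. The cause was not tested. Over the settings that left out no array, 67 of 75 member changes kept their direction. This count says little, as only the 3 scalings and array weights can alter a change. The other settings (minimum, variance model, shared targets, replicate block) leave it as it is. The 8 changes in the other direction were those of OsOPR7 and OsOPR12 under the scalings and array weights. Deviations of same-numbered arrays correlated at 0.0303, -0.143 and -0.0371, so the numbers were not taken to pair samples. With the replicate block OsOPR6 had an adjusted limma p of 0.283. The minimum of 6 left 3 members, PLD1, LOX5 and OsOPR7. Leaving out replicate 1 at 45 °C gave OsOPR4 a change of -1.06 and OPDAR1 of -0.45.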
